A study of Homo sapiens with 9 samples.

Results

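The genes described here are 10 regulators of survival signalling below the TNF receptors, out of 58395 genes in the deposited tables: BIRC2, BIRC3 and XIAP of the inhibitor of apoptosis (IAP) family, CFLAR, the adaptors TRAF1, TRAF2 and TRAF3, and the feedback regulators TNFAIP3, TNIP1 and CYLD. They were listed by name and matched to the tables by Ensembl gene identifier. The list was selected on the level of BIRC3, whose difference between STBD1 WT or STBD1 W203C and plvx neo put this family forward, so the values of BIRC3 are given as a description with no test. RNA was sequenced from the human colon carcinoma cell line HCT116 in 3 groups of 3 libraries. All 9 libraries came from cells with a stably expressed short hairpin RNA against STBD1 (shSTBD1), which the control group carries too. STBD1 is a glycogen-binding protein proposed to deliver glycogen to autophagy through a short motif that binds proteins of the ATG8 family. The group plvx neo received the vector only, the group STBD1 WT a hairpin-resistant STBD1 in that vector, and the group STBD1 W203C the same construct with the tryptophan of the motif changed to cysteine. The lines were made by lentiviral infection and drug selection. The series calls its replicates biological, but the sources used here do not say whether they came from separate infections or whether a line was a clone, so p-values measure the spread between these libraries.

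When a ligand occupies a TNF receptor, TRAF2 brings the cellular IAPs cIAP1 and cIAP2, the products of BIRC2 and BIRC3, to the receptor complex. These are ubiquitin ligases, and the chains they build support activation of NF-κB and hold back the death-inducing complexes. XIAP is the IAP that binds and inhibits caspases directly, and CFLAR encodes c-FLIP, which keeps caspase-8 from being activated. TRAF3, with TRAF2 and the cIAPs, keeps the kinase NIK at a low level in resting cells. TNFAIP3 encodes A20, a ubiquitin-editing enzyme, TNIP1 encodes the A20-binding protein ABIN1, and CYLD is a deubiquitinase, and all 3 restrain the pathway. BIRC3, TRAF1 and TNFAIP3 are textbook target genes of NF-κB.

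The sequence before the start of 4 of these genes is shown because BIRC3 and BIRC2 are adjacent paralogs that differed in size of response, and TNFAIP3 and TRAF3 are members of the other families with a match to the NF-κB consensus. The sequences are from RefSeq (assembly GRCh38.p14, the hg38 build of the tables), run 5′ to 3′ on the strand of the gene, and cover at most 250 bases before the start of a transcript, ending before the first annotated exon base. Capitals mark matches to the NF-κB consensus on either strand.
BIRC3, chr11:102317234-102317483, + strand: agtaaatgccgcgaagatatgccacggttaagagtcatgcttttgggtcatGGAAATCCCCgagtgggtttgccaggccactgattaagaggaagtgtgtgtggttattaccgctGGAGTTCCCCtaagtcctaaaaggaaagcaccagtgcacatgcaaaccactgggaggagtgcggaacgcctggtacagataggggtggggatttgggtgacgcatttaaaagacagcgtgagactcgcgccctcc
BIRC2, chr11:102346964-102347210, + strand: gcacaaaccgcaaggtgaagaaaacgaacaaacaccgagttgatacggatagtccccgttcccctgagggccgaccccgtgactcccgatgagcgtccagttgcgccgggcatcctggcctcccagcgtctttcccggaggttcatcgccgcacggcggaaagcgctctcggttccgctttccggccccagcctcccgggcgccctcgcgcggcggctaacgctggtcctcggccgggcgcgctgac
TNFAIP3, chr6:137867009-137867213, + strand: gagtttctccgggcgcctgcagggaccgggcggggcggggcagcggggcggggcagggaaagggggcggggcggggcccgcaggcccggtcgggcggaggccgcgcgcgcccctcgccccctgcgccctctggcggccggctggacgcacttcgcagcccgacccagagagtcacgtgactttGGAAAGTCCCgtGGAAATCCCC
TRAF3, chr14:102777199-102777448, + strand: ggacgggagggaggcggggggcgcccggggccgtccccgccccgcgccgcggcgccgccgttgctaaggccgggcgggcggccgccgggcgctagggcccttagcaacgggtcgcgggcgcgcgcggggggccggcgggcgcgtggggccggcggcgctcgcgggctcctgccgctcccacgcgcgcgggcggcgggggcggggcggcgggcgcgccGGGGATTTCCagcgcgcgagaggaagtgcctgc

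All 10 genes had promoters in the RefSeq table, 21 in all, since several have more than 1 transcript start. The NF-κB consensus was searched on both strands of the 250 bases before each start. The window of BIRC3 held 2 matches, at 199 to 190 and at 135 to 126 bases before the start, and that of TNFAIP3 held 2, at 67 to 58 and at 55 to 46. Positions count back from the RefSeq transcript start. For TNFAIP3 the window before that start ends at chr6:137867258, past the end of the sequence shown above. Single matches lay before TRAF3 (GGGGATTTCC, 33 to 24 bases before the start), before a start of TNIP1 (GGGACTTTCC, 42 to 33), before a start of CYLD (GGAAAGTCCC, 189 to 180) and before a start of CFLAR (GGGGAATTCC, 97 to 88). So 6 of the 10 genes had a match before at least 1 start, and 6 of their 21 promoters had one. The matches of TNIP1 and CFLAR lay past the first annotated exon base in their windows. The letters were not found in the windows of BIRC2, XIAP, TRAF1 and TRAF2. Of all 27305 genes with promoters there, 6.28% had a match before at least 1 start, and among all 35116 promoters 5.21%. The shorter string GGGNNTTTC on either strand, which overlaps the consensus, was found before 5 of the 10 genes (5 of 21 promoters). It was found before 5.05% of all genes (4.16% of all promoters). A match describes the letters only, and no binding was measured.

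The libraries held 16.9 to 23.3 M expected counts each (M, mega). The level of STBD1 together with the read-through annotation FAM47E-STBD1, which shares its sequence, was 4.85 ± 0.751 TPM with plvx neo, 54.6 ± 2.39 with STBD1 WT and 46.1 ± 2.30 with STBD1 W203C (mean ± SD, n = 3; TPM, a transcript count scaled to a fixed total, is a level per transcript length). The file names of the libraries labelled STBD1 WT name the W203C construct, and those labelled STBD1 W203C name the WT construct. Groups follow the sample labels here, and if the file names were right, every difference between the constructs would have the opposite sign and their comparisons with plvx neo would change places. Of the marker lists, 6 epithelial genes summed to 3180 to 3900 TPM per library, with the sum highest in plvx neo (3800 to 3900) and lower in STBD1 WT (3400 to 3530) and STBD1 W203C (3180 to 3440). The list did not shift as a whole: KRT8 was at 1930 to 1960 TPM in plvx neo and at 1400 to 1480 in STBD1 WT, while KRT19 was at 883 to 927 and at 1190 to 1270. The part of these differences in the results on the 10 genes was not tested. The 5 leukocyte markers summed to at most 1.2 TPM and the 3 endothelial markers to at most 0.22 TPM, and the 5 fibroblast markers summed to 12.8 to 21.8 TPM, of which COL1A1 gave 12.6 to 21.6 and no other gene more than 0.3.

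BIRC3, which encodes cIAP2, had the largest fold differences among the 10 genes. Levels of single genes across libraries are given as CPM, the count of a gene scaled to a fixed library total after TMM normalisation and not divided by gene length. In plvx neo BIRC3 was at 3.29, 4.45 and 4.64 CPM, in STBD1 WT at 44.4, 39.4 and 46.7 CPM, and in STBD1 W203C at 15.98, 18.3 and 17.3 CPM. The 3 groups did not overlap, with plvx neo lowest and STBD1 WT highest. The fitted log2 fold change was 3.38 ± 0.11 (SE) for STBD1 WT over plvx neo, a 10.4-fold difference, and 2.05 ± 0.12 for STBD1 W203C over plvx neo, a 4.14-fold difference. Between the constructs the log2 fold change of STBD1 W203C over STBD1 WT was -1.33 ± 0.08. BIRC3 (ENSG00000023445) lies at chr11:102317484-102339403 on the plus strand and overlaps a non-coding gene on the other strand that is not in the tables. The sources used here do not give whether strand was used in counting.

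BIRC2, the paralog of BIRC3 that encodes cIAP1, varied far less. Its level was 56.9, 60.2 and 55.2 CPM in plvx neo, 71.0, 74.9 and 79.6 CPM in STBD1 WT, and 64.2, 66.1 and 63.8 CPM in STBD1 W203C. The groups kept the order of BIRC3 and did not overlap. BIRC2 rose by a log2 fold change of 0.38 ± 0.05 in STBD1 WT over plvx neo (edgeR quasi-likelihood test, Benjamini-Hochberg adjusted p = 2.04e-05) and was lower in STBD1 W203C than in STBD1 WT (-0.21 ± 0.05, edgeR adjusted p = 0.00262). The second of these calls was lost on TPM (log2 difference -0.12, limma adjusted p = 0.373). Against plvx neo the value in STBD1 W203C was 0.17 ± 0.05 (edgeR adjusted p = 0.0635) and was not called, although it passed the threshold without plvx neo replicate 2 (0.20, edgeR adjusted p = 0.0299). Adjusted p-values here and below cover all genes tested, and a gene was called at an adjusted p below 0.05. XIAP, the third IAP, was at 61.7, 62.9 and 56.3 CPM in plvx neo, 64.6, 61.2 and 58.6 CPM in STBD1 WT and 60.0, 58.8 and 58.6 CPM in STBD1 W203C. Its groups overlapped in every comparison, and the log2 fold changes of 0.02 ± 0.06, -0.05 ± 0.05 and -0.03 ± 0.05 (STBD1 WT over plvx neo, STBD1 W203C over STBD1 WT and STBD1 W203C over plvx neo) were not called.

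**Figure D1:**
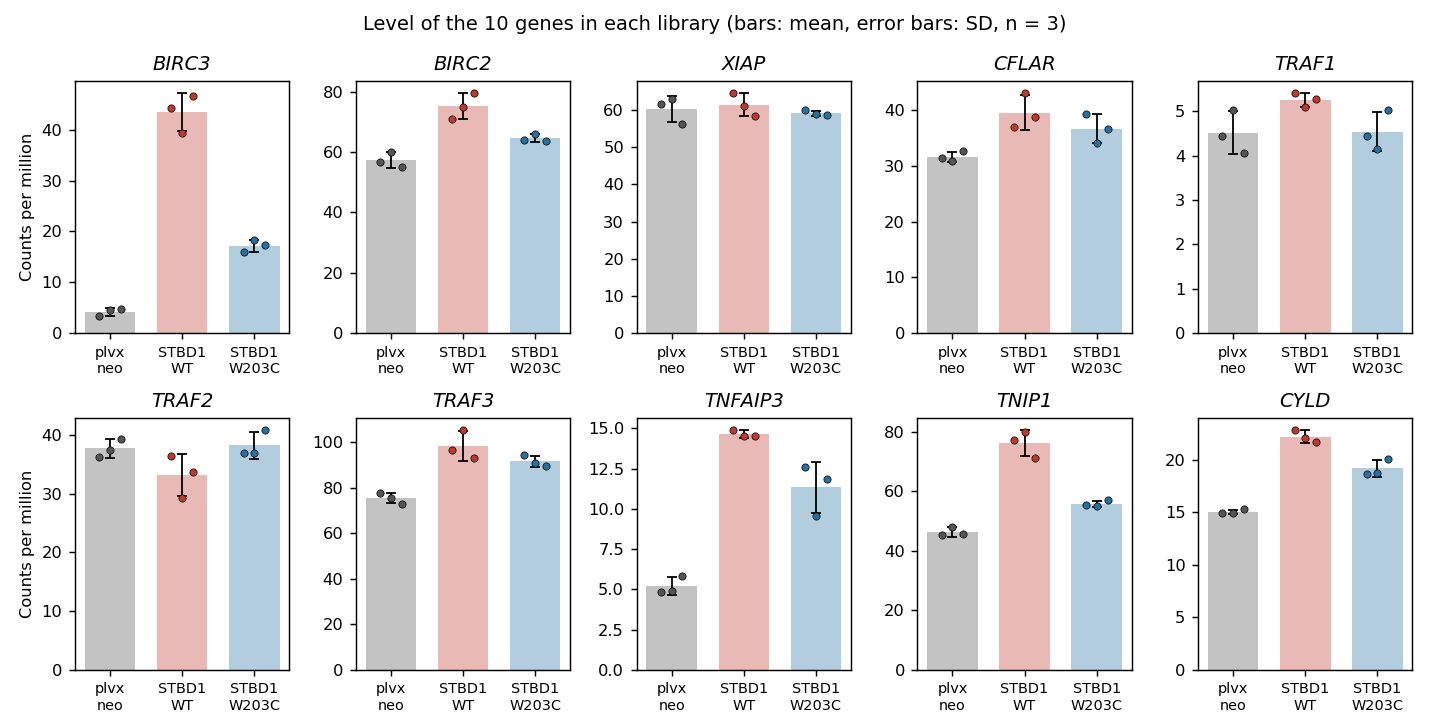
Level of each of the 10 genes in CPM (vertical axes, each from 0) in the 3 groups; points are libraries, bars means and error bars SDs (n = 3). BIRC3, BIRC2, TNFAIP3, TNIP1 and CYLD have 3 groups without overlap, with plvx neo lowest and STBD1 WT highest, while XIAP overlaps throughout.

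The share of BIRC3 in the cIAP pair shows the same values per transcript length. BIRC3 made up 4.93 ± 0.508% of the summed TPM of BIRC2 and BIRC3 in plvx neo, 29.1 ± 1.83% with STBD1 WT and 16.1 ± 1.83% with STBD1 W203C (SD, n = 3). On expected counts, which are not divided by length, the shares were 6.70%, 36.6% and 21.0%. BIRC2 thus remained the more abundant member of the pair in all 9 libraries on both scales.

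**Figure D2:**
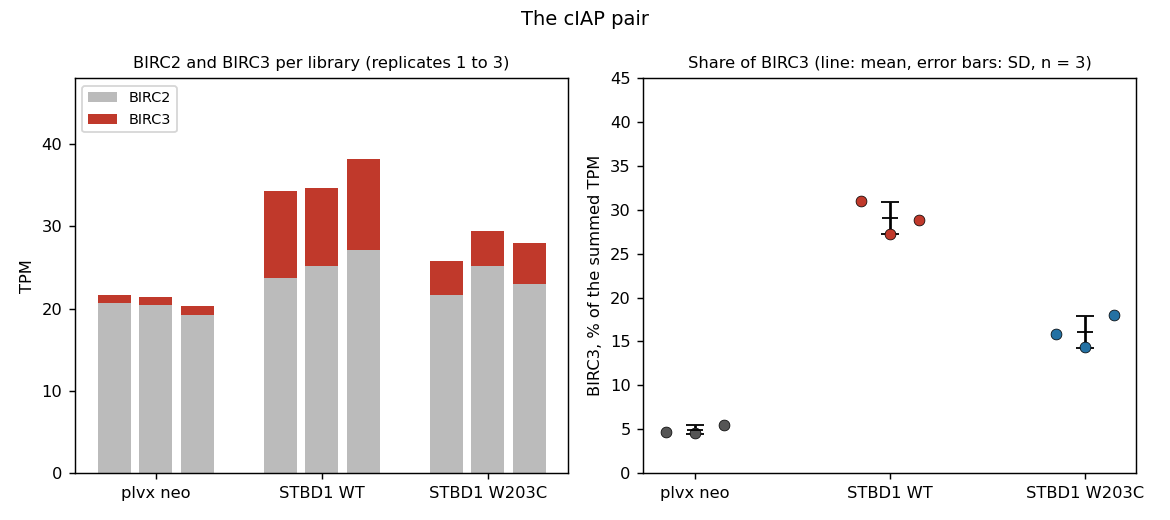
Left, TPM of BIRC2 and BIRC3 stacked for each library; right, BIRC3 as a percentage of their summed TPM, with points for libraries, lines for means and error bars for SDs (n = 3). The share averages 4.93% in plvx neo, 29.1% with STBD1 WT and 16.1% with STBD1 W203C.

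CFLAR was at 31.4, 31.0 and 32.7 CPM in plvx neo, 37.0, 43.1 and 38.7 CPM in STBD1 WT and 39.4, 34.1 and 36.7 CPM in STBD1 W203C. The libraries of both constructs lay above those of plvx neo and overlapped each other. CFLAR rose in STBD1 WT over plvx neo (log2 fold change 0.32 ± 0.07, edgeR adjusted p = 0.00109), a call that was lost on TPM (log2 difference 0.09, limma adjusted p = 0.659). The other values of CFLAR were not called, with 0.21 ± 0.07 in STBD1 W203C over plvx neo (edgeR adjusted p = 0.066) and -0.11 ± 0.07 in STBD1 W203C over STBD1 WT (edgeR adjusted p = 0.27). CFLAR overlaps CFLAR-AS1 on the other strand, which was at 1.64 to 2.84 TPM.

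The 3 TRAF genes did not behave alike. TRAF3 was at 77.6, 75.6 and 73.0 CPM in plvx neo, 96.5, 105.5 and 93.01 CPM in STBD1 WT and 94.4, 90.9 and 89.6 CPM in STBD1 W203C. All 6 libraries with a construct lay above all 3 of plvx neo, and the constructs overlapped. TRAF3 rose in STBD1 WT (0.38 ± 0.05, edgeR adjusted p = 1.04e-05) and in STBD1 W203C (0.28 ± 0.05, edgeR adjusted p = 0.000463) over plvx neo, and the difference between the constructs was not called (-0.10 ± 0.05, edgeR adjusted p = 0.127). The call in STBD1 W203C was lost on TPM (log2 difference 0.25, limma adjusted p = 0.254).

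TRAF2 was at 36.3, 37.5 and 39.4 CPM in plvx neo, 36.4, 29.3 and 33.8 CPM in STBD1 WT and 37.0, 36.9 and 40.9 CPM in STBD1 W203C. It was the only member of the 10 with a call in the opposite direction to the difference of BIRC3. TRAF2 was lower in STBD1 WT than in plvx neo (-0.20 ± 0.07, edgeR adjusted p = 0.0485) and higher in STBD1 W203C than in STBD1 WT (0.22 ± 0.07, edgeR adjusted p = 0.0317). STBD1 WT replicate 2, the lowest library, carried much of both differences: without it they were -0.11 (edgeR adjusted p = 0.311) and 0.13 (edgeR adjusted p = 0.237). Neither call held in DESeq2 (adjusted p = 0.0796 and 0.0549). The first was also lost without plvx neo replicate 2 or 3 (edgeR adjusted p = 0.0777 and 0.177) or STBD1 WT replicate 3 (0.0671), and the second without STBD1 W203C replicate 3 (0.127). TRAF1, an adaptor without ligase activity, was at 4.44, 5.03 and 4.06 CPM in plvx neo, 5.40, 5.10 and 5.27 CPM in STBD1 WT and 4.45, 4.15 and 5.02 CPM in STBD1 W203C. The libraries of STBD1 WT lay just above the others, and no difference was called (log2 fold changes 0.21 ± 0.15, -0.20 ± 0.16 and 0.00 ± 0.16). TRAF1 rested on 72 to 118 expected counts per library.

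TNFAIP3, TNIP1 and CYLD, the genes that restrain the pathway, all rose over plvx neo with either construct on counts. On TPM, where the test was limma in place of edgeR, the 3 calls in STBD1 W203C were lost. The log2 differences were 0.63 for TNFAIP3, 0.31 for TNIP1 and 0.20 for CYLD (limma adjusted p = 0.104, 0.0674 and 0.525). That of TNIP1 was not smaller than on counts (0.27 ± 0.05). TNFAIP3 (chr6:137867214-137883314) was at 4.86, 4.89 and 5.83 CPM in plvx neo, 14.9, 14.5 and 14.5 CPM in STBD1 WT and 12.6, 9.56 and 11.9 CPM in STBD1 W203C. The groups did not overlap, and STBD1 WT had the narrowest range. After BIRC3 it had the largest difference of the 10 genes from plvx neo, at 1.49 ± 0.11 in STBD1 WT (2.81-fold, edgeR adjusted p = 4.56e-09) and 1.12 ± 0.13 in STBD1 W203C (2.18-fold, edgeR adjusted p = 4.43e-06). It was lower in STBD1 W203C than in STBD1 WT (-0.36 ± 0.10, edgeR adjusted p = 0.0103). That call rested on STBD1 W203C replicate 2, the lowest of its group, since without this library the value was -0.25 (edgeR adjusted p = 0.0782), and on TPM it was -0.58 (limma adjusted p = 0.0532).

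TNIP1, whose product binds A20, was at 45.1, 48.1 and 45.5 CPM in plvx neo, 77.2, 80.0 and 71.3 CPM in STBD1 WT and 55.4, 55.0 and 56.9 CPM in STBD1 W203C. Its 3 groups were well apart, with STBD1 W203C nearer to plvx neo. TNIP1 rose by 0.72 ± 0.05 in STBD1 WT over plvx neo (edgeR adjusted p = 6.94e-09) and by 0.27 ± 0.05 in STBD1 W203C (edgeR adjusted p = 0.00317), and was lower in STBD1 W203C than in STBD1 WT (-0.45 ± 0.05, edgeR adjusted p = 1.43e-06). CYLD was at 15.0, 15.0 and 15.3 CPM in plvx neo, 22.9, 22.0 and 21.7 CPM in STBD1 WT and 18.7, 18.8 and 20.1 CPM in STBD1 W203C, again in 3 groups without overlap. CYLD rose in STBD1 WT (0.55 ± 0.07, edgeR adjusted p = 1.18e-05) and in STBD1 W203C (0.34 ± 0.08, edgeR adjusted p = 0.0109) over plvx neo. The difference of CYLD between the constructs (-0.21 ± 0.07, edgeR adjusted p = 0.0398) was lost in DESeq2 (adjusted p = 0.121), on TPM (limma adjusted p = 0.167) and when any library except STBD1 W203C replicate 3 was left out (edgeR adjusted p = 0.0622 to 0.124).

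All 10 genes passed the filter on low counts in the 3 comparisons, which share libraries, so that their counts are not independent of each other. In STBD1 WT over plvx neo 7 of the 10 genes were called higher, against 13.9% of the 15289 genes tested, and 1 was called lower, against 13.9%. For 8 of the 10 the groups did not overlap in CPM, against 40.0% of the genes tested, and the median log2 fold change of the 10 was 0.38, against 0.01 over all genes tested. In STBD1 W203C over STBD1 WT 5 were called lower, against 13.4% of 15052 genes, and 1 higher, against 14.5%. The groups did not overlap for 7, against 41.1%, and the median was -0.21, against -0.01. In STBD1 W203C over plvx neo 5 were called higher, against 3.03% of 15081 genes, and 0 lower, against 2.67%. At an unadjusted p below 0.05 edgeR also had 0 of the 10 lower, as had DESeq2 after adjustment. There was no overlap for 7 genes, against 23.6%, and the median was 0.24, against 0.00. On TPM, with limma on log2(TPM + 1), 6, 2 and 1 of the 10 were called in the 3 comparisons, against 8, 6 and 5 with edgeR on counts. The shares of all genes called by limma or DESeq2 are not given here. BIRC3, on which the list was selected, is 1 of the 10 in all of these counts and medians. Since the list was chosen with the difference of BIRC3 known, nothing is read from these shares.

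**Figure D3:**
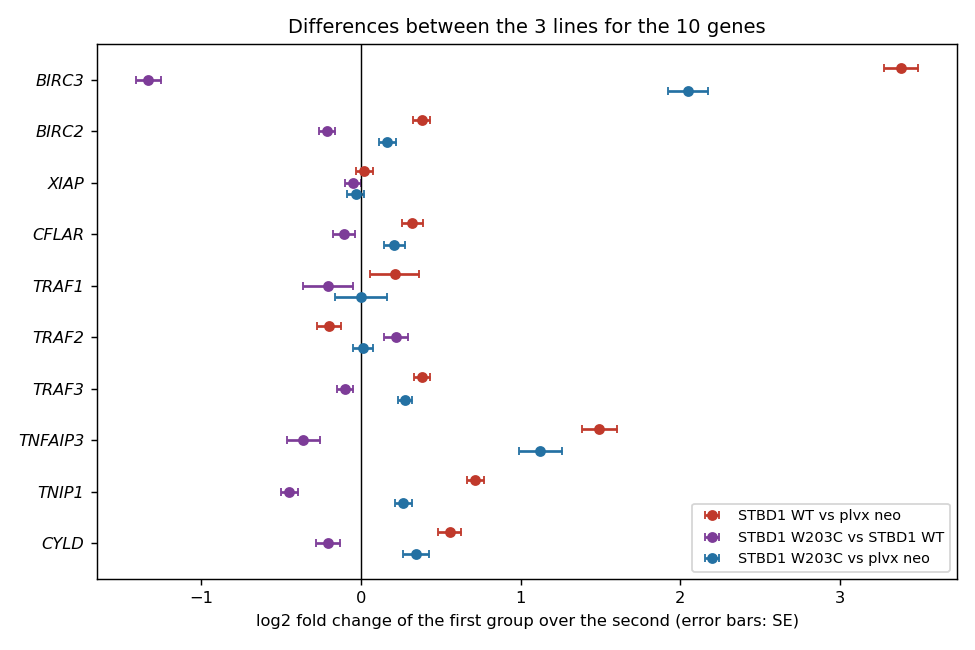
Log2 fold change (horizontal axis) of each of the 10 genes in the 3 comparisons, with standard errors as error bars. BIRC3, TNFAIP3 and TNIP1 lie to the right of 0 in both comparisons with plvx neo and to the left between the constructs, whereas TRAF2 has the opposite signs in STBD1 WT over plvx neo (-0.20) and between the constructs (0.22).

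Compared per transcript length, the order of the genes changed between the lines. In plvx neo TRAF2, TNIP1 and BIRC2 were highest, at 21.1 ± 2.44, 20.5 ± 0.875 and 20.1 ± 0.784 TPM, with overlapping libraries. TRAF3, CFLAR and XIAP followed at 14.2 ± 1.29, 13.9 ± 1.46 and 13.5 ± 2.54 TPM, also overlapping. CYLD (4.02 ± 0.567 TPM) and TNFAIP3 (2.13 ± 0.594 TPM) were lower, and BIRC3 (1.04 ± 0.0721 TPM) and TRAF1 (0.833 ± 0.179 TPM) were lowest and overlapped. In STBD1 WT the level of TNIP1 was 34.4 ± 2.18 TPM, above every library of BIRC2 (25.3 ± 1.77 TPM), and BIRC3, at 10.4 ± 0.809 TPM, ranked above TNFAIP3 (6.24 ± 1.59 TPM) and CYLD (5.79 ± 0.142 TPM), which overlapped. In STBD1 W203C TNIP1 (25.6 ± 0.437 TPM) and BIRC2 (23.3 ± 1.77 TPM) overlapped, as did CYLD (4.75 ± 0.392 TPM) and BIRC3 (4.46 ± 0.512 TPM). TRAF1 was the lowest of the 10 on the mean in each line.

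The tables also give a mean transcript length for each gene, weighted by the estimated abundance of its transcripts, a readout that the choice of the genes did not use. For CFLAR it was 3026 ± 239 bases in STBD1 WT and 2654 ± 228 bases in plvx neo, with no overlap (two-sided exact permutation p = 0.1, the smallest that 3 against 3 libraries allow). It was the only member of the 10 whose groups did not overlap in length in that comparison, against 12.2% of the genes whose length varied. For 0 of the 10 was there no overlap in STBD1 W203C over STBD1 WT (against 11.3%) or in STBD1 W203C over plvx neo (against 11.5%). The estimate for TNFAIP3 varied between libraries of a group, with 2979 ± 985 bases with plvx neo, 2800 ± 567 with STBD1 WT and 3489 ± 619 with STBD1 W203C. The TPM of TNFAIP3 within STBD1 WT ranged from 5.06 to 8.05, while its CPM ranged only from 14.5 to 14.9.

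Over the 9 libraries genes with a pattern most like BIRC3 included CDKN1A, OPTN, ICAM1 and TAPBP, among 10026 genes with a mean of at least 5 TPM. Their Pearson correlations of log2(TPM + 1) were 0.997, 0.993, 0.991 and 0.991. A rank given for a member is its place by correlation against those genes, also where its own mean was below 5 TPM. The libraries form 3 groups, so these values mostly reflect 3 levels. CDKN1A was at 159 ± 6.11 TPM with plvx neo, 278 ± 9.82 with STBD1 WT and 215 ± 5.72 with STBD1 W203C. OPTN, which encodes optineurin, was at 9.34 ± 0.958 TPM with plvx neo, 32.3 ± 1.81 with STBD1 WT and 19.9 ± 0.616 with STBD1 W203C. ICAM1, an adhesion molecule, was at 4.88 ± 0.0153, 7.99 ± 0.251 and 6.50 ± 0.265 TPM in the same order. For TAPBP these levels were 17.8 ± 0.34, 38.1 ± 0.886 and 28.2 ± 1.63 TPM. Of the other members TNIP1 was nearest to BIRC3 (0.966, rank 35), then TNFAIP3 (0.934, rank 115), BIRC2 (0.873), CYLD (0.863) and TRAF3 (0.860). TRAF1 (0.551), CFLAR (0.314), XIAP (-0.07) and TRAF2 (-0.352) were further away.

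BIRC2 begins 7.81 kb after the end of BIRC3 on chromosome 11, and the genes within 250 kb were compared in the same fits. TMEM123, 56.9 kb away, was at 84.5 to 103 TPM, rose in STBD1 WT over plvx neo (0.27 ± 0.03, edgeR adjusted p = 8.3e-06) and was lower in STBD1 W203C than in STBD1 WT (-0.20 ± 0.04, edgeR adjusted p = 0.000245). YAP1, 84.1 kb on the other side, rose by 0.17 ± 0.04 in STBD1 WT and by 0.19 ± 0.04 in STBD1 W203C over plvx neo (edgeR adjusted p = 0.00667 and 0.00957). MMP7, the matrix metalloproteinase matrilysin, 181 kb away, was low at 0.29 to 2.59 TPM, rose by 2.09 ± 0.35 in STBD1 WT over plvx neo (edgeR adjusted p = 0.000167) and was lower in STBD1 W203C than in STBD1 WT (-0.95 ± 0.29, edgeR adjusted p = 0.0171). In STBD1 W203C over plvx neo TMEM123 (0.07 ± 0.03, edgeR adjusted p = 0.301) and MMP7 (1.13 ± 0.41, edgeR adjusted p = 0.115) were not called. YAP1 was not called between the constructs (0.02 ± 0.04, edgeR adjusted p = 0.739). Only BIRC3 and MMP7 among the tested genes of the region had a fitted log2 fold change above 1 in STBD1 WT over plvx neo. The non-coding gene ENSG00000277459 was tested and not called, and the remaining annotated genes of the window, CFAP300, MMP20, TMEM123-DT, RNU6-952P and several identified by number, were at most at 0.91 TPM or not in the tables.

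**Figure D4:**
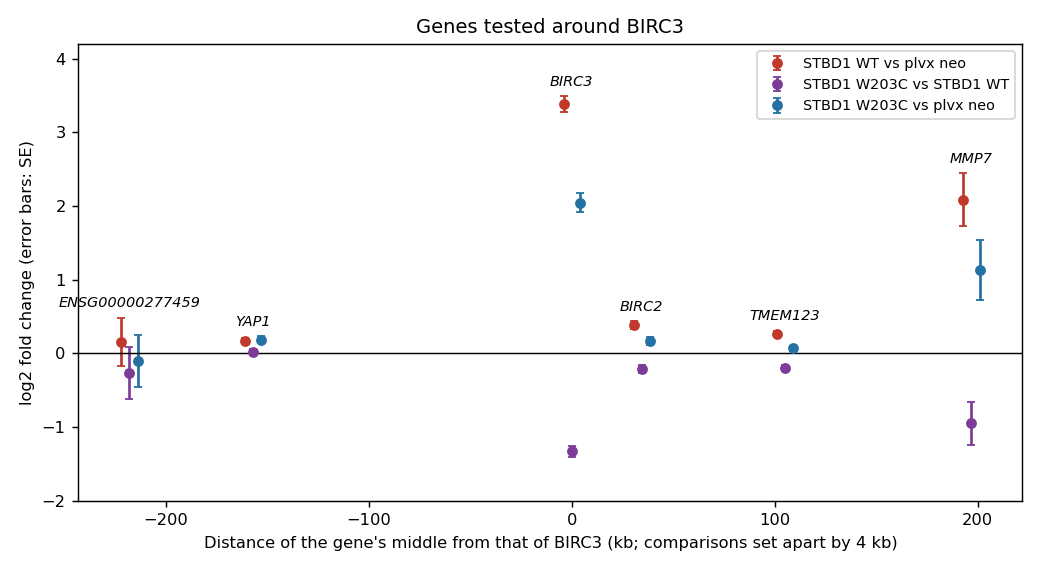
Log2 fold changes with standard errors of the genes tested around BIRC3, plotted against the distance of the middle of each gene from that of BIRC3 in kb; the 3 comparisons are set slightly apart. BIRC3 (3.38) and MMP7 (2.09) stand above BIRC2 (0.38), TMEM123 (0.27) and YAP1 (0.17) in STBD1 WT over plvx neo.

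The rest of the pathway was read from 5 lists with 76 genes in all, none of them a member. These lists were chosen with earlier results of these data known, so their order, calls and p-values are a description only. Shares of all genes given beside the lists are from edgeR, and none are given for DESeq2 or limma. The list of NF-κB subunits and inhibitors had the largest median size of difference of the 5 lists in each comparison. All 10 of its genes were called higher in STBD1 WT over plvx neo, against 13.9% of all genes, with a median log2 fold change of 0.52. DESeq2 called 10 higher and limma on log2(TPM + 1) 7. RELB, a subunit of the non-canonical dimer, went from 10.8 ± 1.60 CPM to 52.9 ± 2.14 CPM (2.29 ± 0.08, edgeR adjusted p = 7.73e-14), and NFKBIA, the inhibitor IκBα, from 23.9 ± 1.42 CPM to 74.2 ± 5.71 CPM (1.63 ± 0.07, edgeR adjusted p = 3.66e-13). In STBD1 W203C over plvx neo 8 of the 10 were called higher, against 3.03% of all genes, again led by RELB (1.93 ± 0.09) and NFKBIA (1.34 ± 0.07). DESeq2 called 7 of them higher there and limma on log2(TPM + 1) 5. Between the constructs 6 were lower in STBD1 W203C, against 13.4% of all genes, with the largest differences in NFKBIZ (-0.69 ± 0.12) and NFKB2 (-0.52 ± 0.04). Only NFKBIB was higher (0.16 ± 0.04), against 14.5% of all genes. DESeq2 called 4 of the 10 lower and limma on log2(TPM + 1) 3, and each called 1 higher.

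Of 18 tested genes of the receptor complex and death effectors 4 were called higher and 2 lower in STBD1 WT over plvx neo, where 13.9% of all genes were called in each direction. The adaptor TRADD rose by 0.44 ± 0.08 and the TRAIL receptor TNFRSF10B by 0.34 ± 0.04, whereas TNFRSF1A, the main TNF receptor, was lower (-0.16 ± 0.05). Between the constructs 1 was higher, TRAF4 (0.14 ± 0.04), and 3 were lower, among them TRADD (-0.41 ± 0.09) and TNFRSF10B (-0.13 ± 0.04). Of all genes tested there 14.5% were called higher and 13.4% lower. Against plvx neo 3 were higher in STBD1 W203C, where 3.03% of all genes were, among them FAS (0.41 ± 0.09) and TRAF4 (0.26 ± 0.04).

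Among 17 kinases of the NF-κB and JNK branches 2 were called higher in STBD1 WT over plvx neo, IKBKE (0.64 ± 0.13) and TAB3 (0.22 ± 0.06). Another 3 were called lower, led by MAP3K5 (-0.32 ± 0.09) and CHUK, which encodes IKKα (-0.26 ± 0.04). In that comparison 13.9% of all genes tested were called in each direction, so the kinases were called about as often as all genes. Between the constructs CHUK was higher in STBD1 W203C (0.23 ± 0.05) and 3 kinases were lower, among them IKBKB (-0.20 ± 0.07) and TAB3 (-0.19 ± 0.06). Of all genes tested there 14.5% were called higher and 13.4% lower. DESeq2 called 0 kinases lower in that comparison. In STBD1 W203C over plvx neo 2 were called, both lower, MAP3K14, which encodes NIK (-0.42 ± 0.09), and MAP3K5 (-0.33 ± 0.08). The share of all genes called lower there was 2.67%.

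Of 19 other ubiquitin ligases, deubiquitinases and adaptors 6 were called in STBD1 WT over plvx neo, all lower, where 13.9% of all genes were called in each direction. They were led by SPATA2 (-0.24 ± 0.07), which links CYLD to its complex, and USP7 (-0.23 ± 0.04). The list did not fall as a whole: 8 of the 19 had a positive log2 fold change, with a median of -0.04. At an unadjusted p below 0.05 edgeR had 4 higher and 6 lower. DESeq2 called 3 lower and limma on log2(TPM + 1) 2. Between the constructs 6 of the 19 were higher in STBD1 W203C, against 14.5% of all genes, led by SPATA2 (0.34 ± 0.07) and USP15 (0.25 ± 0.05). Another 2 were lower, against 13.4%, NOD2 (-0.37 ± 0.12) and ZFAND6 (-0.15 ± 0.05), which DESeq2 did not call. The ligase RNF31 was the only call in STBD1 W203C over plvx neo (0.19 ± 0.05), where 3.03% of all genes were called higher and 2.67% lower. Of 6 tested genes among the other IAPs and their antagonists BIRC5, which encodes survivin, was lower in STBD1 WT than in plvx neo (-0.22 ± 0.04) and higher in STBD1 W203C than in STBD1 WT (0.18 ± 0.04). The other 5 were not called in any comparison. Of all genes tested 13.9% were called lower in the first of these comparisons and 14.5% higher in the second, so 1 call among 6 genes was about as frequent as among all genes.

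**Figure D5:**
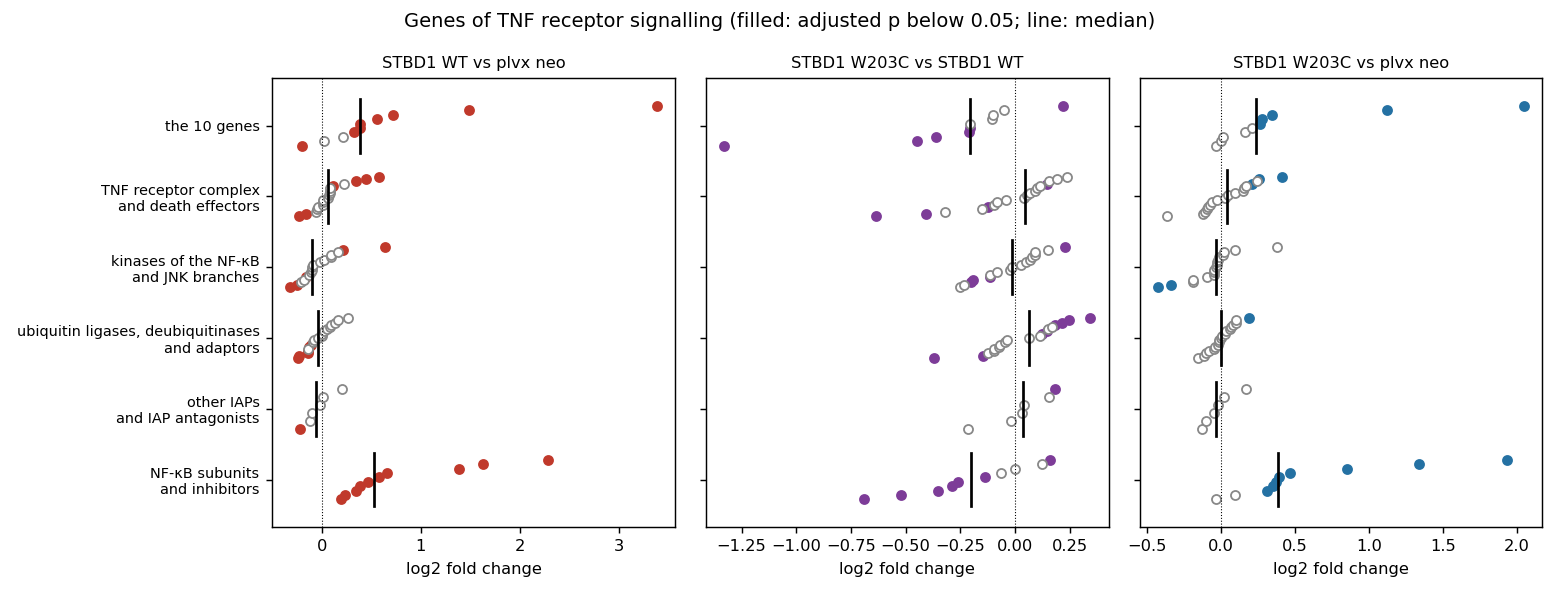
Log2 fold changes of the 10 genes and of the 5 lists in the 3 comparisons, 1 point per gene tested; filled points have an adjusted p below 0.05, open points do not, and black lines are medians. The list of NF-κB subunits and inhibitors has its median at 0.52 in STBD1 WT over plvx neo, and the other 4 lists have medians between -0.10 and 0.06.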

How the data were processed

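The labels and the methods of the study give the steps before deposit. Cells were lysed in TRIzol, libraries made with the NEBNext Ultra RNA kit were sequenced as read pairs, and the authors aligned filtered reads to hg38 with STAR 2.7.1a and the gene models of Ensembl release 93. The deposited tables hold the expected count of each gene from RSEM 1.3.1, not normalised, in which read pairs shared between genes are divided. The deposited tables also hold the TPM that the authors obtained by dividing by effective transcript length and scaling each library to the same total. The FPKM columns were not used.

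Symbols matched 57754 of 58395 genes (98.9%). Expected counts were rounded, filtered with filterByExpr, normalised by TMM and tested with the quasi-likelihood F-test of edgeR 4.0.16 in R 4.3.3, two-sided, on the 6 libraries of each comparison, with Benjamini-Hochberg adjustment over all genes tested. The SE is the absolute log2 fold change divided by the square root of F. The replicate spread (biological coefficient of variation) was 4.05 to 4.21%. No replicates were duplicates: chi-square per gene between replicates was 2.12 to 3.87. DESeq2 1.42.0, limma 3.58.1 on log2(TPM + 1) and log2(TPM + 0.1), other scaling, no filter, a single fit of 9 libraries, a replicate block and leaving out each library were tried as alternatives. The fit was also run on simulated counts drawn with the same spread for every gene, which the real counts need not have. The outcome of that run is not reported here. Groups and replicate numbers follow the sample titles. All 10 genes are named, with the 5 genes most like BIRC3, those within 250 kb of it, and, per list and comparison, up to 2 called genes with the largest rise and 2 with the largest fall at a mean of at least 5 CPM; 2 genes that this rule selects are not reported here. The genes and lists were chosen with earlier results of these data known. Coordinates of genes are from GENCODE on hg38, a later annotation than the one used for counting.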

Additional observations from a re-analysis of the deposited data

How the results depend on the processing

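Over 390 fits of single members under the alternatives, 338 kept direction and side of the threshold, 37 lost the call, 2 gained it and 13 changed sign. Sign changes were found in XIAP, TRAF1 and TRAF2 and were near 0. XIAP in STBD1 WT over plvx neo was -0.01 with limma on log2(TPM + 1) and on log2(TPM + 0.1), and from -0.03 to 0.06 when 1 library was left out. In STBD1 W203C over STBD1 WT it was 0.01 with both limma fits, and in STBD1 W203C over plvx neo it was -0.08 to 0.00 without 1 library. In that last comparison TRAF1 was -0.00 with no filter and -0.07 to 0.09 without 1 library, and TRAF2 was -0.03 to 0.05 without 1 library.

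Calls fell most on TPM, where the length estimates vary between libraries and the test is limma in place of edgeR. Both limma fits called 2 members in STBD1 W203C over STBD1 WT (6 with edgeR) and 1 in STBD1 W203C over plvx neo (5 with edgeR), with BIRC3 counted among the members. Of the 5 lists they called 13, 12 and 5 genes in the 3 comparisons, in place of 28, 24 and 14. The share of all genes called by limma is not given here, so these falls cannot be set against that of all genes. The cause was not tested. Leaving out 1 library gave 7 to 8, 4 to 5 and 5 to 6 called members in the 3 comparisons, and 17 to 25 list genes in STBD1 WT over plvx neo, the lowest without STBD1 WT replicate 2. Members without overlap in transcript length then numbered 1 to 3, 0 to 3 and 0 to 2. Leaving out a library can only keep or add such members, so nothing is read from these counts. The BIRC3 share on expected counts was 6.70%, 36.6% and 21.0%.

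Replicate numbers did not pair the libraries (mean correlation of same-numbered deviations 0.0156, from -0.00703 to 0.0758, against -0.00782 for different numbers). With the replicate block, 8, 5 and 6 members were called: CYLD in STBD1 W203C over STBD1 WT had an edgeR adjusted p of 0.0607, and BIRC2 in STBD1 W203C over plvx neo passed at 0.0436. The members with the fewest expected counts per library were BIRC3 (63 to 92 in plvx neo) and TRAF1 (72 to 118 over all libraries).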
